A study of Mus musculus with 13 samples.

Results

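The 49 genes described here are mouse interferon-stimulated genes, genes known to be switched on by interferon, and they were taken by symbol from a count table of 48587 gene symbols. Of the 49, 46 were found under their current symbol and 3 under an older one: Ifi207 as AI607873, Ifi209 as Pyhin1 and Ifi211 as Mnda. All 49 passed the filter on low counts, which kept 13246 genes. RNA was sequenced from macrophages of the sciatic nerve (4 libraries), macrophages of the optic nerve (4 libraries) and microglia of the brain (5 libraries), all from C57BL/6J mice. The series asks how macrophages of the peripheral nervous system differ from those of the central nervous system. The labels give the strain and the tissue and name no allele, agent, age or time for these groups, and the method of cell isolation is not stated for them. No label says that the libraries of a tissue came from different mice. They may be technical replicates, in which case p-values measure only the spread between these libraries. The microarray and single-cell experiments of the series were not analysed here.

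Total counts ran from 10.9 to 23.5 M per library, and the lowest total belonged to brain replicate 1, which also had the highest share of mitochondrially encoded counts (3.79%, against 0.410 to 1.23% in the other libraries). The 5 brain columns carry an unexplained prefix and were assigned by elimination. The 8 microglia markers summed to between 27740 and 51970 CPM (read counts put on a common library size) in those columns, with the lowest sum in replicate 1, to between 26630 and 31340 CPM in optic nerve and to between 1382 and 1733 CPM in sciatic nerve. Csf1r, the macrophage growth factor receptor, had means of 4756, 7030 and 10970 CPM in sciatic nerve, optic nerve and brain. Brain replicates 1 and 2 stood apart from the other brain libraries in an earlier examination of these data, so counts are given with and without them.

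Type I interferons bind the Ifnar1-Ifnar2 receptor, whose kinases Jak1 and Tyk2 phosphorylate STAT proteins, Stat2 among them. Together with Irf9 these form a complex that binds the interferon-stimulated response element (ISRE) of target promoters, while interferon gamma acts mainly through the GAS element. The products of the target genes block viral entry, degrade viral RNA, sense nucleic acids in the cytosol, and feed back on the pathway. In resident macrophages of the brain and nerves the pathway is known for a low constant activity and for a strong response to infection and injury.

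The ISRE core was searched in the promoters of the members as the letters GAAA, any 2 bases and GAAA on either strand, from 250 bases before to 50 bases after the gene start (RefSeq, GRCm38.p6). Promoters were found in the table for 39 of the 49 genes. The core was present in 25 of them (64.1%), against 1079 of all 27025 genes with a promoter (3.99%). A longer form, the core followed by C, was present in 18 (46.2%, against 0.944% of all). The GAS, searched as TTCNNNGAA, was present in 6 (15.4%, against 9.55%). A match is a description of the letters and not a measured binding site.

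The first windows shown are those of Ifi203, Ifi207 and Ifi211 of the p200 family and of the membrane restriction factor Ifitm2, the 4 members with the largest fold changes in sciatic nerve against brain. Each is printed 5′ to 3′ on the strand of the gene, with the ISRE cores in capitals.
Ifi203 (chr1:173942503-173942542, minus strand, match beginning 35 bases before the start): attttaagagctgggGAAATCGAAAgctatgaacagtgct
Ifi207 (chr1:173741826-173741865, minus strand, 41 bases before): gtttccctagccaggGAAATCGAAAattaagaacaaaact
Ifi211 (chr1:173913059-173913098, minus strand, 37 bases before): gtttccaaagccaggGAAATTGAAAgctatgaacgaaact
Ifitm2 (chr7:140955983-140956022, minus strand, 46 bases before): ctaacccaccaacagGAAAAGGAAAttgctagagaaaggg
In these 4 genes the core lay within 50 bases of an annotated start, on the same strand as the gene. Ifi203 has another annotated promoter (chr1:173942623-173942922), which held 0 cores.

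The next windows belong to members that were higher in both nerves and not called between the nerves, and to Oas1a and Gbp2, which were called between them in opposite directions. Several hold overlapping or repeated cores.
Isg15 (chr4:156200860-156200911, minus strand, 3 cores, the nearest 66 bases before): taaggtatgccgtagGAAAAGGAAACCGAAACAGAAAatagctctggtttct
Ifit1 (chr19:34640770-34640828, plus strand, 2 cores, the nearest 85 bases before): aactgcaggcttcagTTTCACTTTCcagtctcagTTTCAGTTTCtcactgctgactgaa
Ifit3 (chr19:34583358-34583431, plus strand, 2 cores, the nearest 122 bases before): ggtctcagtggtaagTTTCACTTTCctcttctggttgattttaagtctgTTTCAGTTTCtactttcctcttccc
Cxcl10 (chr5:92349078-92349117, minus strand, 213 bases before): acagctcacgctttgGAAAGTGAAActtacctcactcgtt
Oas1a (chr5:120907526-120907560, minus strand, 2 cores, the nearest 14 bases before): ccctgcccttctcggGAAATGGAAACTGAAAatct
Gbp2 (chr3:142620589-142620628, plus strand, 59 bases before): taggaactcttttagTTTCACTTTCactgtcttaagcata
The window of Ifit3b, the tandem copy of Ifit3 at chr19:34607754-34607827, is identical to that of Ifit3.

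Cores were also present in members that did not separate the nerves from the brain, of which Stat2 and Slfn8 are shown.
Stat2 (chr10:128270261-128270300, plus strand, 222 bases before): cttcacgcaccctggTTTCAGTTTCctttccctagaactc
Slfn8 (chr11:83020834-83020873, minus strand, 48 and 136 bases before 2 annotated starts): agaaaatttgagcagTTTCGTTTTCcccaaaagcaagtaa
Of the 25 genes with a core, 22 were called higher in sciatic nerve than in brain (median log2 fold change 2.92). Of all genes tested, 24.1% were called higher in that comparison. Of the 14 with a promoter and no core the number was 11 (median 2.69), and of the 10 with no promoter in the table it was 8 (median 2.66). In optic nerve against brain the numbers called higher were 21, 13 and 8 in the same order, against 19.6% of all genes. Cores were thus present both in members that were called and in members that were not, and these counts are a description with no test. In the 46 promoters of these genes there were 36 matches to the core, with the single Slfn8 site counted once from each of its starts. Of the matches, 30 were centred before the start and 19 within the 100 bases before it.

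**Figure D1:**
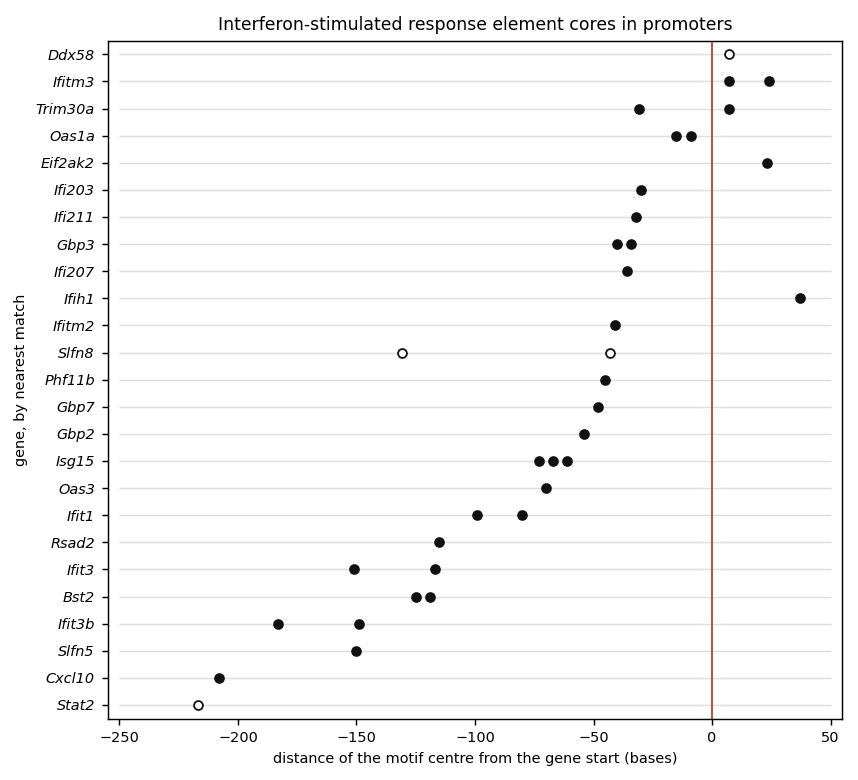
Position of each ISRE core (either strand) relative to the gene start in the 25 members that hold one, in bases, with the start as a vertical line. Filled points are genes called in sciatic nerve against brain, open points (Ddx58, Slfn8 and Stat2) are not called, and the 2 points of Slfn8 are the same site measured from 2 starts.

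Most of the 49 interferon-stimulated genes were higher in both nerves than in the brain. The 49 were chosen with earlier results of these data known, so the shares of all genes beside them are a description. In sciatic nerve 41 of the 49 were called higher than in brain and 0 lower (edgeR's quasi-likelihood test, adjusted p under 0.05), where 24.1% of all genes tested were called higher and 24.3% lower. At an unadjusted p under 0.05 edgeR gave 1 lower member (Ddx58), and among the other tools DESeq2 called 0 and limma-voom 1. In optic nerve 42 were called higher and 1 lower, against 19.6% and 17.4% of all genes. Both comparisons use the same brain libraries. The median log2 fold change over the 49 was 2.92 in sciatic nerve (all genes, -0.09) and 2.61 in optic nerve (all genes, -0.08). The libraries did not overlap for 37 of the 49 genes in sciatic nerve and for 37 in optic nerve, against 41.3% and 31.8% of all genes. Calls of at least 2-fold higher covered 37 members in sciatic nerve (18.0% of all genes) and 40 in optic nerve (12.6%). Without brain replicates 1 and 2 the members called higher were 40 and 39. In bulk RNA, more cells that express a gene and more RNA per cell cannot be told apart.

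Higher levels in both nerves were called for 40 of the 49 members, against 15.5% of all genes. Between the nerves, 14 members were higher in sciatic nerve, 2 lower (Gbp2 and Lgals3bp) and 33 not called, where 10.9% of all genes were called in each direction. The median log2 fold change of sciatic against optic nerve was 0.35 (all genes, 0.00), with 10 members higher and 1 lower by at least 2-fold (8.28% and 7.85% of all genes). The libraries of the nerves did not overlap for 21 members, against 29.9% of all genes. The mean levels followed the order sciatic nerve, optic nerve, brain in 29 members (23.3% of all genes) and the order optic nerve, sciatic nerve, brain in 17. Ddx58 was the member with its highest mean in brain. Irf9, Stat2, Mx2 and Parp14 were called in none of the 3 comparisons. Without brain replicates 1 and 2 the calls between the nerves were 18 higher and 3 lower, with Irf9 among the lower (log2 fold change -0.26, adjusted p = 0.0381, against 0.0984 to 0.604 when each library was left out in turn).

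**Figure D2:**
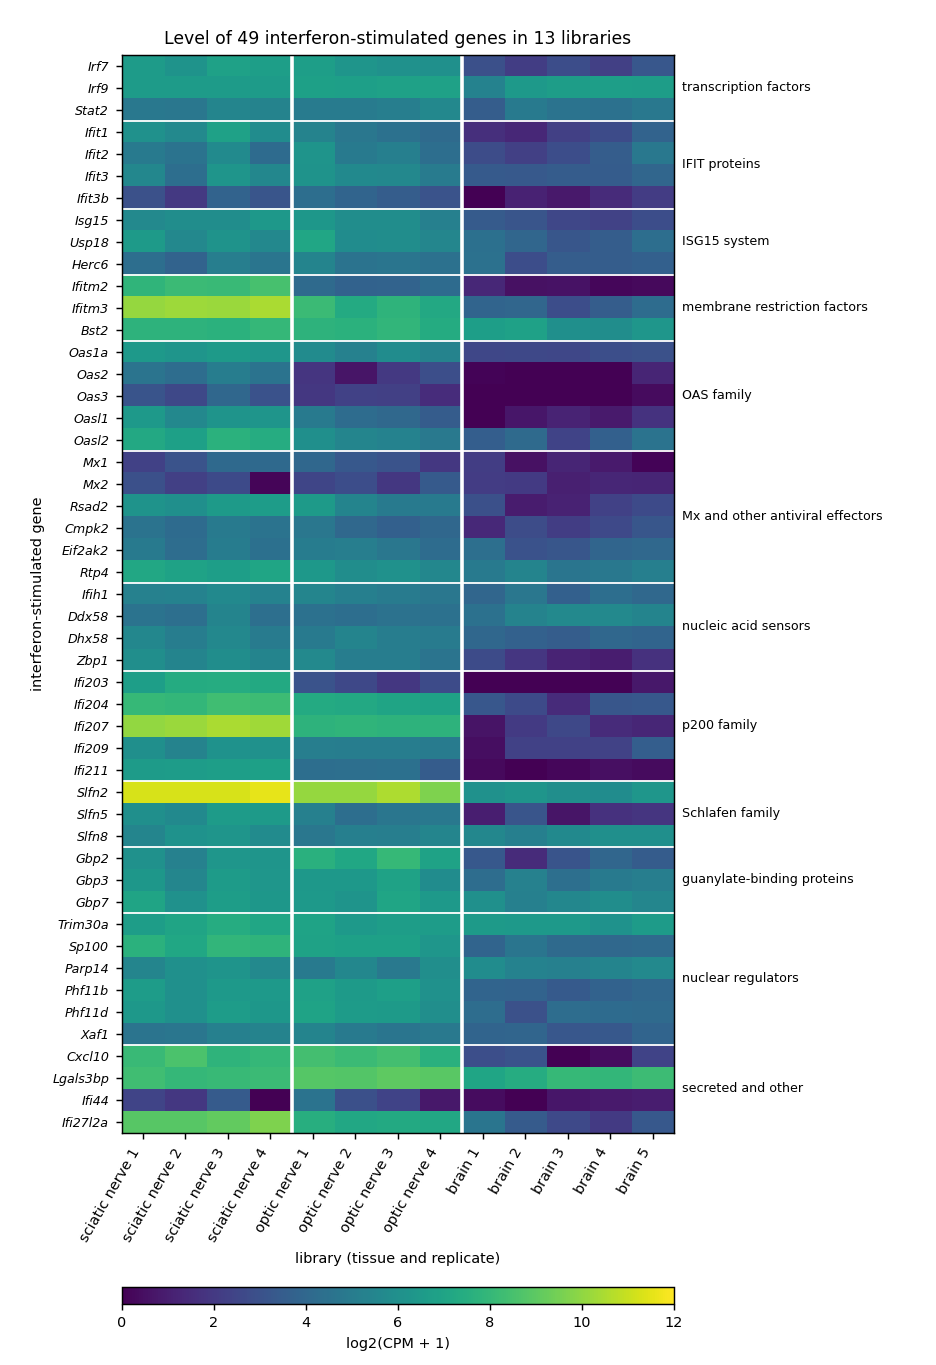
Level of the 49 genes (rows, by role) in the 13 libraries (columns), as log2(CPM + 1). Most rows are brighter in the 8 nerve libraries than in the 5 brain libraries, with Slfn2, Ifitm3 and Ifi207 the brightest in sciatic nerve and Irf9 among the rows with little contrast.

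The transcription factors that carry the signal behaved unequally. Irf7, which drives the amplification of type I interferon production, was at 96.3, 71.7, 116.8 and 106.5 CPM in sciatic nerve, 104.4, 74.4, 66.3 and 64.3 CPM in optic nerve and 6.50, 3.49, 6.16, 3.90 and 8.60 CPM in brain. Every nerve library was above every brain library, and the log2 fold changes were 4.10 (SE 0.28, adjusted p = 1.47e-08) in sciatic and 3.76 (SE 0.28, adjusted p = 7.61e-08) in optic nerve. Irf9, the DNA-binding subunit of the ISRE complex, was at 96.3, 93.7, 94.0 and 95.9 CPM in sciatic nerve, 112.2, 107.1, 116.3 and 117.0 CPM in optic nerve and 39.5, 87.1, 102.8, 105.1 and 100.5 CPM in brain. Its levels overlapped between sciatic nerve and brain, with a log2 fold change of 0.12 (SE 0.22, adjusted p = 0.665), and the low value of brain replicate 1 set its direction, which was -0.0602 without that library. In optic nerve its log2 fold change was 0.38 (SE 0.22, adjusted p = 0.192). Stat2, the subunit that brings a transactivation domain to the complex, had log2 fold changes of 0.60 (SE 0.28, adjusted p = 0.0828) and 0.67 (SE 0.27, adjusted p = 0.0702) and was not called in either nerve.

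The IFIT proteins bind viral RNA and block its translation, and their 4 genes lie together on chromosome 19. All 4 were called higher in both nerves, and none differed between the nerves by the test. Ifit3 was at 46.4, 18.9, 75.6 and 45.6 CPM in sciatic nerve, 69.6, 51.4, 47.1 and 31.2 CPM in optic nerve and 9.44, 9.08, 10.3, 10.2 and 14.5 CPM in brain. The nerves overlapped with each other and not with the brain, with log2 fold changes of 2.12 (SE 0.33, adjusted p = 8.93e-05) and 2.22 (SE 0.33, adjusted p = 0.000113). Of the 50-base stretches of Ifit3, 51.2% also occur in Ifit3b, so reads may be split between these genes and the levels of both are uncertain. Ifit1 was the member of the group with the widest gap between the nerves, at a mean of 71.6 ± 29.5 CPM (SD, n = 4) in sciatic and 25.96 ± 10.2 CPM (n = 4) in optic nerve, with no overlap and an adjusted p of 0.0652. Ifit2 overlapped between each nerve and the brain, with brain replicate 5 at 27.0 CPM where the other brain libraries were between 3.88 and 10.7 CPM.

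Isg15 encodes a ubiquitin-like protein, Herc6 its ligase in the mouse and Usp18 the protease that removes it and also restrains the interferon receptor. All 3 were called higher in both nerves and none between the nerves. Isg15 was at 49.2, 58.6, 57.9 and 83.5 CPM in sciatic nerve, 80.2, 57.1, 57.8 and 35.9 CPM in optic nerve and 9.82, 8.04, 4.85, 4.09 and 6.22 CPM in brain. Its log2 fold changes were 3.24 (SE 0.29, adjusted p = 3.4e-07) and 3.13 (SE 0.29, adjusted p = 1.07e-06). Usp18 was at 91.7, 47.5, 71.8 and 47.4 CPM in sciatic nerve, 134.7, 55.3, 58.3 and 44.7 CPM in optic nerve and 20.4, 14.3, 8.40, 10.6 and 19.3 CPM in brain. Neither nerve overlapped the brain, and Usp18 rose by 2.15 (SE 0.35, adjusted p = 0.000158) in sciatic and 2.33 (SE 0.36, adjusted p = 0.00015) in optic nerve on the log2 scale. Herc6 was at 19.5, 12.9, 33.6 and 24.5 CPM in sciatic nerve, 42.3, 22.8, 24.5 and 21.3 CPM in optic nerve and 21.3, 6.12, 10.8, 10.7 and 11.6 CPM in brain. Herc6 was the weakest call of the 3, with log2 fold changes of 0.91 (SE 0.35, adjusted p = 0.0462) and 1.20 (SE 0.35, adjusted p = 0.0158). Its call in sciatic nerve held in 3 of the 13 fits that left out a library (sciatic nerve replicate 2, optic nerve replicate 1 or brain replicate 1), and in the other 10 the adjusted p was between 0.0509 and 0.167. In optic nerve it was lost without optic nerve replicate 1 (adjusted p = 0.0686).

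The membrane restriction factors and the p200 family had the highest median log2 fold changes between the nerves, 2.57 and 2.50. Ifitm3, which blocks the fusion of viruses in endosomes, was at 1100, 1215, 1160 and 1440 CPM in sciatic nerve, 289.6, 163.1, 221.9 and 151.4 CPM in optic nerve and 13.5, 14.4, 6.20, 10.6 and 17.8 CPM in brain. No library of a tissue overlapped another tissue, and the levels were 98.3-fold higher in sciatic nerve (log2 fold change 6.62, SE 0.31, adjusted p = 2.5e-10) and 16.5-fold higher in optic nerve (4.05, SE 0.28, adjusted p = 3.84e-08) than in brain. Ifitm2, its neighbour on chromosome 7, was at 232.4, 290.7, 280.0 and 365.9 CPM in sciatic nerve, 16.7, 12.6, 12.95 and 17.3 CPM in optic nerve and 1.51, 0.463, 0.513, 0.151 and 0.251 CPM in brain. Its log2 fold changes were 9.14 (SE 0.45, adjusted p = 3.82e-10) and 4.85 (SE 0.40, adjusted p = 2.72e-07) against brain and 4.29 (SE 0.38, adjusted p = 7.92e-07) between the nerves, and 48.5% of its 50-base stretches also occur in the predicted gene Gm45717. Bst2, which tethers budding virus to the cell surface, separated the nerves from the brain by less, with means of 222.5 ± 19.2, 205.3 ± 29.0 and 83.1 ± 25.2 CPM (n = 4, 4 and 5) and a log2 fold change between the nerves of 0.12 (SE 0.21, adjusted p = 0.76).

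The OAS enzymes detect double-stranded RNA and trigger the degradation of RNA, and Oasl1 and Oasl2 are relatives that lack or modify this activity. All 5 genes of the family were called higher in both nerves, and 3 of them (Oas1a, Oasl1 and Oasl2) also higher in sciatic than in optic nerve. Oasl2 was at 150.1, 113.7, 203.4 and 171.7 CPM in sciatic nerve, 62.1, 43.4, 38.4 and 28.3 CPM in optic nerve and 11.2, 16.5, 4.34, 11.9 and 22.7 CPM in brain. The tissues did not overlap, and the log2 fold changes were 3.58 (SE 0.38, adjusted p = 1.82e-06) in sciatic nerve, 1.69 (SE 0.36, adjusted p = 0.00213) in optic nerve and 1.89 (SE 0.38, adjusted p = 0.00212) between the nerves. Oas1a was at 90.0, 74.3, 90.9 and 77.8 CPM in sciatic nerve, 53.4, 37.7, 55.3 and 40.8 CPM in optic nerve and 4.91, 5.13, 4.85, 6.44 and 6.76 CPM in brain. It had a small spread in each tissue, and its step between the nerves was 0.83 on the log2 scale (SE 0.19, adjusted p = 0.00419), but 57.6% of its 50-base stretches also occur in Oas1g. Oas3 was at 7.59, 4.98, 14.8 and 7.06 CPM in sciatic nerve, 2.87, 3.98, 3.85 and 1.83 CPM in optic nerve and at 0 in 4 brain libraries, with 0.292 CPM in brain replicate 5. Its log2 fold changes were 6.99 (SE 1.04, adjusted p = 5.95e-05) and 5.53 (SE 0.99, adjusted p = 0.000607) against brain, and the nerves, which did not overlap, were not called apart (adjusted p = 0.265). The difference between the nerves was called by limma-voom (1.38, adjusted p = 0.0458) and when only these 2 tissues were fitted (1.42, adjusted p = 0.0363), and leaving out each library in turn gave adjusted p from 0.0868 to 0.538. Oas2 was likewise at 0 in 3 of the 5 brain libraries.

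Among Mx and the other antiviral effectors 5 of 6 were called higher in both nerves, and Mx2, which the annotation lists as a polymorphic pseudogene, in neither. Rtp4, which is known to inhibit the replication of RNA viruses, was at 145.2, 118.2, 105.2 and 131.0 CPM in sciatic nerve, 83.3, 58.1, 66.5 and 46.4 CPM in optic nerve and 29.8, 42.2, 24.6, 26.7 and 34.7 CPM in brain. The tissues formed 3 separate ranges, and Rtp4 rose by 1.98 (SE 0.20, adjusted p = 1.27e-06) in sciatic nerve and 1.01 (SE 0.20, adjusted p = 0.00131) in optic nerve, with 0.97 (SE 0.21, adjusted p = 0.00352) between the nerves. Eif2ak2, the kinase PKR that stops translation when it binds double-stranded RNA, was at 29.8, 18.3, 31.8 and 20.6 CPM in sciatic nerve, 31.7, 34.4, 25.9 and 18.2 CPM in optic nerve and 19.95, 7.05, 8.12, 14.3 and 15.5 CPM in brain. Both nerves overlapped brain replicate 1, and the log2 fold changes of 0.96 (SE 0.32, adjusted p = 0.0218) and 1.09 (SE 0.32, adjusted p = 0.0147) were among the smallest called. The call in sciatic nerve was lost without sciatic nerve replicate 1 or 3 or without brain replicate 3. Rsad2 and Cmpk2 are neighbours on chromosome 12 that are transcribed away from each other, and their log2 fold changes in sciatic nerve were 4.49 (SE 0.55) and 2.22 (SE 0.39). Mx1 ranged from 3.92 to 16.3 CPM within sciatic nerve and from 2.84 to 15.4 CPM within optic nerve, against 0.0835 to 3.48 CPM in brain.

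The cytosolic nucleic acid sensors did not move as a group. Ifih1, which encodes the RNA sensor MDA5, was at 37.9, 39.2, 51.1 and 39.4 CPM in sciatic nerve, 43.6, 35.7, 31.0 and 25.8 CPM in optic nerve and 14.4, 26.3, 11.9, 19.3 and 15.5 CPM in brain. Its log2 fold changes were 1.26 (SE 0.24, adjusted p = 0.000512) and 0.96 (SE 0.24, adjusted p = 0.0059), and optic nerve replicate 4 overlapped with brain replicate 2. Ddx58, which encodes the RNA sensor RIG-I, was at 23.02, 19.7, 41.6 and 20.2 CPM in sciatic nerve, 21.6, 19.1, 22.0 and 21.5 CPM in optic nerve and 21.2, 39.8, 48.9, 49.7 and 41.5 CPM in brain. Only brain replicate 1 overlapped with optic nerve, and Ddx58 fell by 0.94 on the log2 scale in optic nerve (SE 0.27, adjusted p = 0.0153), the reverse of Ifih1. In sciatic nerve its log2 fold change of -0.62 (SE 0.27, adjusted p = 0.071) was not called, but it was called without sciatic nerve replicate 3 (-0.94, adjusted p = 0.00937) and without brain replicate 1 (-0.78, adjusted p = 0.011). Dhx58, the third helicase of this family, rose by 1.57 (SE 0.20) and 1.36 (SE 0.20), and Zbp1, a sensor of Z-form nucleic acid, by 4.32 (SE 0.44) and 3.77 (SE 0.43) in sciatic and optic nerve.

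The p200 family, whose proteins bind DNA and other nucleic acids and regulate transcription, had the highest median log2 fold changes of all role groups against brain, 8.87 in sciatic nerve and 4.99 in optic nerve. These medians are the values of Ifi211 and Ifi203, which had brain means of 0.215 and 0.150 CPM and passed the filter through the nerves. The size of both medians is therefore uncertain. Its 5 members lie within a single cluster, from Ifi209 (chr1:173630917-173647928) to Ifi203 (chr1:173920407-173942672). Ifi207 was at 1059, 1159, 1432 and 1270 CPM in sciatic nerve, 213.9, 227.3, 214.4 and 212.5 CPM in optic nerve and 0.529, 3.17, 5.04, 1.82 and 1.42 CPM in brain. No libraries overlapped between tissues, and the levels were 501.9-fold higher in sciatic nerve (log2 fold change 8.97, SE 0.46, adjusted p = 6.18e-10), 88.6-fold higher in optic nerve (6.47, SE 0.42, adjusted p = 2.03e-08) and 5.67-fold higher in sciatic than in optic nerve (2.50, SE 0.38, adjusted p = 0.000167). Ifi203 was at 103.4, 166.0, 169.7 and 155.0 CPM in sciatic nerve, 7.35, 5.00, 2.85 and 5.68 CPM in optic nerve and at 0 in 3 brain libraries, with 0.0379 and 0.7098 CPM in brain replicates 4 and 5. It had the largest log2 fold change of the 49 both in sciatic nerve against brain (9.81, SE 0.73, adjusted p = 4.07e-08) and between the nerves (4.83, SE 0.60, adjusted p = 2.74e-05).

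Ifi211 was at 96.4, 96.9, 103.2 and 113.5 CPM in sciatic nerve, 18.9, 19.7, 20.5 and 10.2 CPM in optic nerve and 0.227, 0, 0.140, 0.417 and 0.292 CPM in brain. Its log2 fold changes were 8.87 (SE 0.48, adjusted p = 9.99e-10), 6.30 (SE 0.45, adjusted p = 5.43e-08) and 2.56 (SE 0.37, adjusted p = 0.000109) in sciatic nerve, optic nerve and between the nerves, but 72.8% of its 50-base stretches also occur in its neighbour Mndal. Mndal, which is not among the 49, showed the same order, with 79.6 to 102.3 CPM in sciatic nerve, 1.79 to 5.98 CPM in optic nerve and 0 in all brain libraries. Ifi204 was at 281.8 ± 32.2, 138.8 ± 19.8 and 6.57 ± 3.03 CPM (SD, n = 4, 4 and 5), with 20% of its stretches shared with Mndal. Ifi209 was the family member not called between the nerves, at 59.04 ± 13.2 and 33.0 ± 1.17 CPM (adjusted p = 0.285).

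Slfn2, a Schlafen protein that is known to guard quiescence and survival of immune cells, had the highest CPM of the 49 in both nerves, and in brain it ranked behind Lgals3bp, Irf9, Trim30a and Bst2. Its levels were 2494, 2497, 2510 and 3015 CPM in sciatic nerve, 1113, 1101, 1472 and 831 CPM in optic nerve and 65.7, 75.2, 60.1, 55.2 and 76.9 CPM in brain. The 3 tissues did not overlap, and Slfn2 rose 39.5-fold in sciatic nerve (log2 fold change 5.30, SE 0.19, adjusted p = 1.45e-11) and 16.95-fold in optic nerve (4.08, SE 0.18, adjusted p = 3.76e-10), with 2.33-fold between the nerves (1.22, SE 0.18, adjusted p = 0.000108). Its cluster neighbours differed. Slfn5 followed the same order with log2 fold changes of 4.66 (SE 0.57) and 3.18 (SE 0.54). Slfn8 was at 42.7, 67.3, 74.8 and 55.2 CPM in sciatic nerve, 26.5, 34.8, 34.2 and 42.8 CPM in optic nerve and 46.2, 35.3, 50, 62.1 and 61.9 CPM in brain. All 3 tissues overlapped for Slfn8, and it was called only between the nerves (0.80, SE 0.23, adjusted p = 0.0212), a call lost without sciatic nerve replicate 2 or 3 or without optic nerve replicate 1, 2 or 3. In optic nerve against brain its log2 fold change was -0.57 (SE 0.22, adjusted p = 0.055). It was called lower there without brain replicate 1 or 2, without optic nerve replicate 4 or without sciatic nerve replicate 1, with the lowest adjusted p at 0.0234.

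The guanylate-binding proteins are GTPases that attack membranes around intracellular pathogens and respond strongly to interferon gamma. All 3 members were called higher in both nerves, and only Gbp2 was called between the nerves. Gbp3 and Gbp7 had log2 fold changes of sciatic against optic nerve of -0.19 (SE 0.29, adjusted p = 0.709) and -0.01 (SE 0.24, adjusted p = 0.984). Gbp2 was at 67.1, 37.6, 79.2 and 76.1 CPM in sciatic nerve, 196.3, 140.3, 259.6 and 120.2 CPM in optic nerve and 8.84, 1.82, 7.56, 14.4 and 10.35 CPM in brain. The 3 ranges were separate with optic nerve highest, and the log2 fold changes were 2.92 (SE 0.43, adjusted p = 5.59e-05) in sciatic nerve and 4.38 (SE 0.45, adjusted p = 3.26e-06) in optic nerve. Between the nerves Gbp2 fell by 1.46 in sciatic nerve (SE 0.44, adjusted p = 0.0262), a call lost without sciatic nerve replicate 1 or 2 or without optic nerve replicate 1 or 3, with adjusted p up to 0.0853. Gbp7 was at 127.8, 65.4, 101.4 and 80.8 CPM in sciatic nerve, 88.5, 73.7, 131.4 and 84.9 CPM in optic nerve and 64.7, 37.0, 46.7, 57.4 and 45.01 CPM in brain. Its nerve libraries all lay above its brain libraries, the nearest at 65.4 against 64.7 CPM, with log2 fold changes of 0.91 (SE 0.23, adjusted p = 0.00446) and 0.92 (SE 0.23, adjusted p = 0.00617). Gbp5, of the same family but not among the 49, was higher in optic nerve than in sciatic nerve. Its log2 fold change of sciatic against optic nerve was -1.86 (SE 0.48, adjusted p = 0.0118), among the 2 largest falls for which its list was searched.

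Among the nuclear regulators 4 of 6 were called higher in both nerves. Sp100, the core component of a nuclear body that represses viral genomes, was at 201.3, 140.8, 240.9 and 225.2 CPM in sciatic nerve, 120.0, 112.3, 111.3 and 79.1 CPM in optic nerve and 13.5, 24.4, 16.6, 15.4 and 16.7 CPM in brain. The tissues did not overlap, and its log2 fold changes were 3.54 (SE 0.22, adjusted p = 4e-09), 2.61 (SE 0.21, adjusted p = 1.93e-07) and 0.94 (SE 0.21, adjusted p = 0.00496) in sciatic nerve, optic nerve and between the nerves. Trim30a, known as an inhibitor of NF-kappaB signalling, was at 102.9, 128.4, 170.3 and 137.1 CPM in sciatic nerve, 122.1, 89.7, 100.9 and 98.5 CPM in optic nerve and 91.6, 84.7, 85.3, 68.9 and 93.8 CPM in brain. It was called only in sciatic nerve (0.67, SE 0.16, adjusted p = 0.00336), where its lowest library lay above the highest brain library, and its log2 fold change in optic nerve was 0.28 (SE 0.16, adjusted p = 0.196). Phf11b and Phf11d rose by 2.72 (SE 0.20) and 2.39 (SE 0.28) in sciatic nerve and by 2.91 (SE 0.20) and 2.58 (SE 0.28) in optic nerve, with 47.0% of the stretches of Phf11b shared with Phf11d.

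Cxcl10, a chemokine that attracts T cells, was at 281.3, 389.5, 224.2 and 252.8 CPM in sciatic nerve, 343.3, 293.3, 336.5 and 193.0 CPM in optic nerve and 6.42, 7.51, 0, 0.303 and 4.30 CPM in brain. The nerves overlapped with each other and lay far above the brain, with log2 fold changes of 6.29 (SE 0.81, adjusted p = 1.53e-05) and 6.31 (SE 0.81, adjusted p = 3.06e-05) and of -0.02 (SE 0.70, adjusted p = 0.991) between the nerves. Lgals3bp, a secreted ligand of galectins, was at 320.7, 251.2, 274.3 and 291.3 CPM in sciatic nerve, 457.7, 441.7, 520.3 and 486.0 CPM in optic nerve and 130.2, 174.0, 263.3, 242.8 and 298.7 CPM in brain. Optic nerve stood above both other tissues without overlap, while sciatic nerve overlapped the brain. Its log2 fold changes were 0.36 (SE 0.20, adjusted p = 0.154) in sciatic nerve, 1.10 (SE 0.20, adjusted p = 0.000661) in optic nerve and -0.74 (SE 0.21, adjusted p = 0.0199) between the nerves, the last lost without sciatic nerve replicate 2 or 3 or without optic nerve replicate 3. Ifi27l2a, a small membrane protein, was at 576 ± 160, 158.3 ± 18.5 and 10.3 ± 8.21 CPM (SD, n = 4, 4 and 5). Ifi44 ranged from 0 to 9.86 CPM in sciatic nerve and from 0.71 to 22.9 CPM in optic nerve, so that the single call against brain, in optic nerve (3.99, SE 1.24, adjusted p = 0.0204), came with the widest error of the 49.

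**Figure D3:**
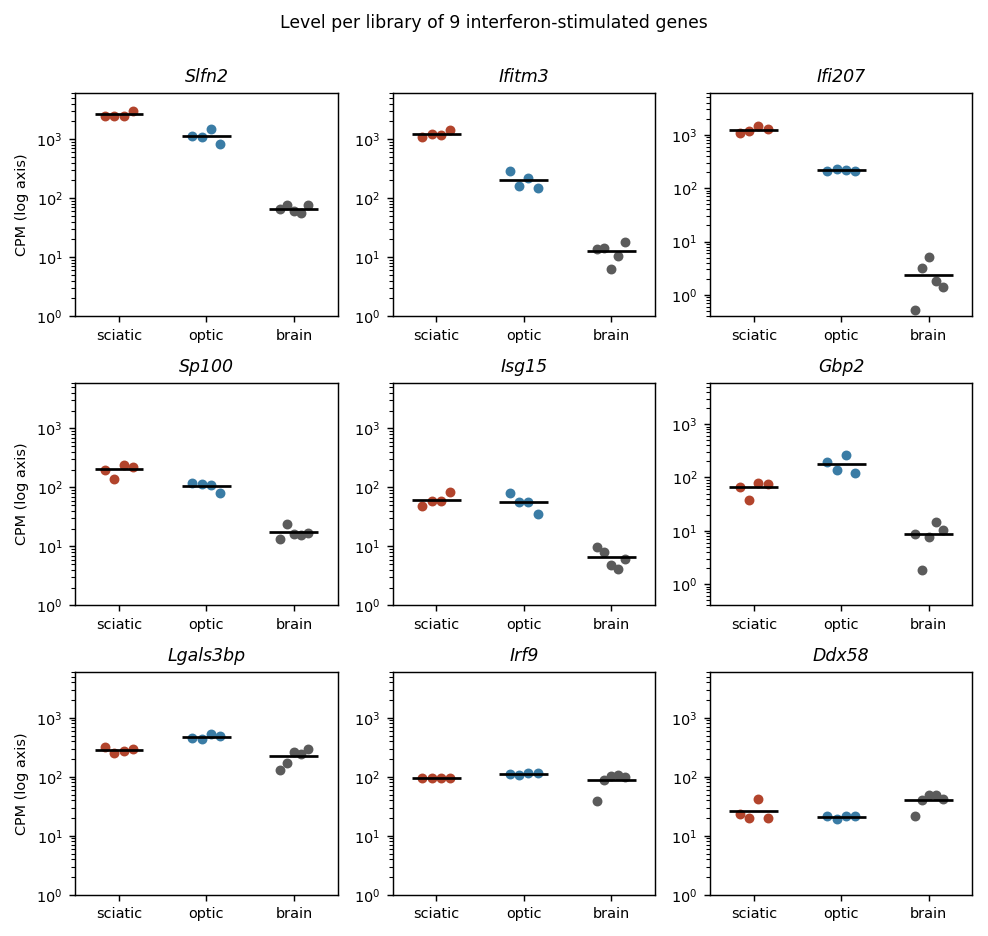
CPM of 9 members in each library on a log axis (points) with the mean of each tissue (bars), for 4 sciatic nerve, 4 optic nerve and 5 brain libraries. Slfn2, Ifitm3, Ifi207 and Sp100 step down from sciatic nerve to optic nerve to brain, Isg15 separates the nerves from the brain, Gbp2 and Lgals3bp are highest in optic nerve, Irf9 is near 100 CPM in all but brain replicate 1 (39.5 CPM), and Ddx58 has its highest mean in brain, with sciatic nerve replicate 3 (41.6 CPM) inside the range of the brain libraries.

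**Figure D4:**
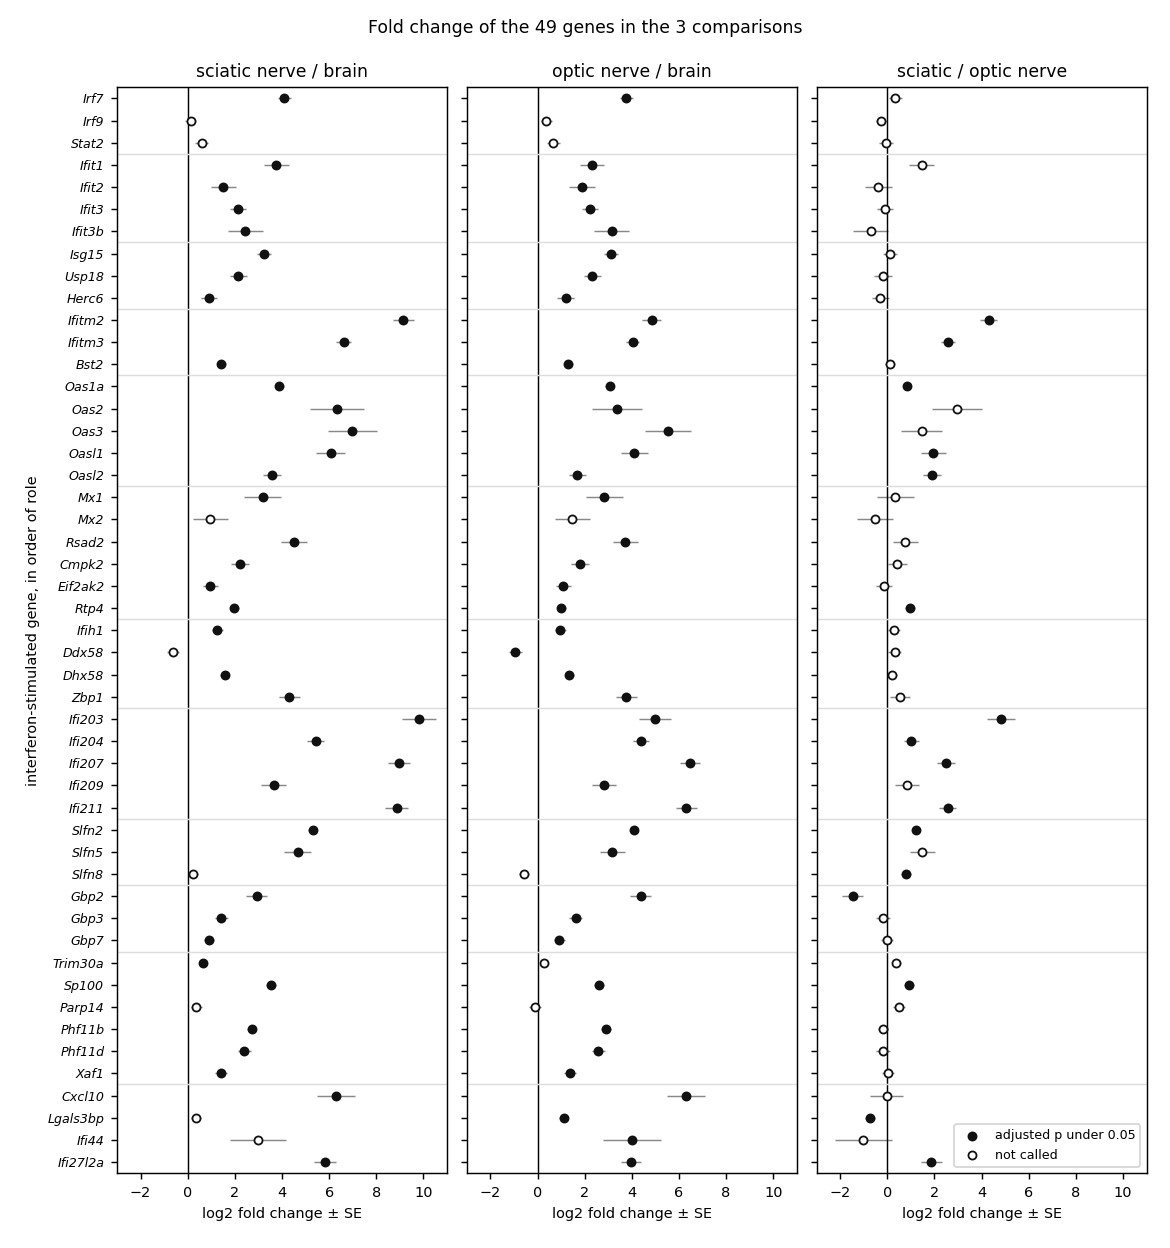
Log2 fold change with its standard error for the 49 genes in the 3 comparisons, in the order of the role groups, with filled points for an adjusted p under 0.05. The 41 and 42 filled points to the right of 0 in the comparisons with brain contrast with 14 to the right and 2 to the left between the nerves.

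Compared per length of merged exons, the members at the top differed between the tissues. In sciatic nerve Ifitm3 was highest at 1813 CPM per kb, followed by Slfn2 at 1580.0 and Ifi27l2a at 1244 CPM per kb. In optic nerve Slfn2 led at 678.5 CPM per kb, with Ifi27l2a at 341.9 and Ifitm3 at 304.6 CPM per kb. In brain Bst2 led at 92.0 CPM per kb, followed by Lgals3bp at 77.9 and Slfn2 at 40.0 CPM per kb. The 5 most abundant members made up 62.0% of the summed level of the 49 in sciatic nerve (Slfn2, Ifi207, Ifitm3, Ifi27l2a and Ifitm2), 49.2% in optic nerve (Slfn2, Lgals3bp, Cxcl10, Ifi207 and Ifitm3) and 50.9% in brain (Lgals3bp, Irf9, Trim30a, Bst2 and Slfn2). The 49 genes took 0.753 to 0.889% of all counts in the sciatic nerve libraries, 0.391 to 0.517% in optic nerve and 0.113 to 0.143% in brain.

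The number of members near the detection limit in brain was small. In 8 of the 49 (Ifitm2, Oas2, Oas3, Mx1, Ifi203, Ifi211, Cxcl10 and Ifi44) fewer than 4 brain libraries reached 0.529 CPM, the level of 10 counts in the median library, and these passed the filter through the nerves. Among the other 41, 34 were called higher in sciatic nerve and 34 in optic nerve, against 24.1% and 19.6% of all genes tested. These shares are not restricted to genes that reached the same level in brain.

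Within a tissue, single libraries were highest or lowest for many members at once. The mean log2 CPM over the 49 (prior count 2) was 6.12 ± 0.25 in sciatic nerve (SD, n = 4), 5.42 ± 0.27 in optic nerve (n = 4) and 2.71 ± 0.31 in brain (n = 5), where the mean over all genes tested was 3.41, 3.34 and 3.32. Sciatic nerve replicate 3 was the highest of its tissue for 29 of the 49 genes (59.2%, against 23.1% of all genes) and had the highest mean, 6.46. Optic nerve replicate 1 was highest for 29 (59.2%, against 24.4%) and replicate 4 lowest for 31 (63.3%, against 26.3%). Brain replicate 5 was highest for 20 (40.8%, against 16.6%) and lowest for 1, with a mean of 3.22, where the other brain libraries were between 2.40 and 2.68. The lowest nerve library, at 5.12, was above every brain library.

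The early response and dissociation genes, which are induced by stress and tissue handling, also separated the tissues. Against brain, 19 of the 20 genes on that list were called higher and 1 lower in sciatic nerve, and 19 higher in optic nerve. Between the nerves 8 were higher and 1 lower. Their summed level was 35650 to 42060 CPM in sciatic nerve, 18360 to 22680 CPM in optic nerve and 1150 to 1484 CPM in brain, and none was at 0 in a whole tissue. Sciatic nerve replicate 3, which had the highest mean over the members, had the lowest early response sum of its tissue. In optic nerve the orders of the sums and of the member means were opposite. Replicate 1 had the lowest sum and the highest mean there, and replicate 4 the highest sum and the lowest mean. Brain replicate 5, highest of its tissue for the members, had a sum of 1334 CPM. The part of the early response genes in the differences between tissues was not tested.

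**Figure D5:**
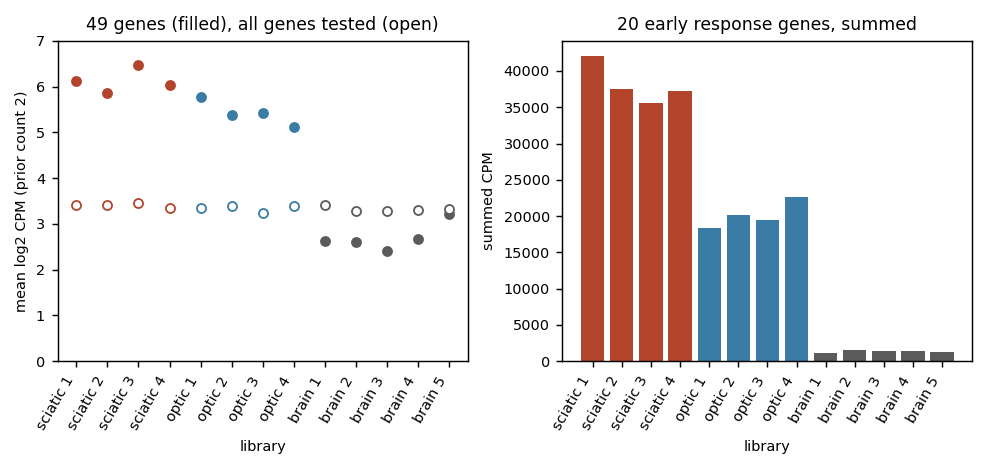
Left, mean log2 CPM (prior count 2) over the 49 genes (filled) and over all genes tested (open) in each library. Right, summed CPM of 20 early response genes in each library. The filled points and the sums are both lowest in brain and highest in sciatic nerve.

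Markers of other cell types moved with the tissues as well. Against brain the shares of all genes called higher and lower were 24.1% and 24.3% in sciatic nerve and 19.6% and 17.4% in optic nerve. Of the 10 monocyte markers 5 were tested, all 5 higher in sciatic nerve than in brain and 3 in optic nerve, and they summed to 5537 to 7734 CPM, 440.3 to 633.1 CPM and 3.78 to 11.7 CPM in sciatic nerve, optic nerve and brain. F13a1 made up most of the sum in sciatic nerve (4916 CPM), while Ace was at 0 in every library, Chil3 at 0 in both nerves and Ly6c2 at a mean of at most 0.779 CPM. In optic nerve Nr4a1, which is also on the early response list, made up most of the sum (mean 322.9 CPM, F13a1 164.3 CPM). Ccr2 and Plac8 were the tested markers not called in optic nerve. Of the 7 fibroblast markers, 6 were tested and all 6 were higher in sciatic nerve, where they summed to 196.8 to 411.7 CPM, against 12.5 to 41.3 CPM in optic nerve and 2.27 to 7.65 CPM in brain. Of the 8 conventional dendritic cell markers, 6 were tested, and against brain 5 were higher and 1 lower in sciatic nerve and 4 higher in optic nerve. They summed to 374.1 to 464.1 CPM, 188.1 to 322.5 CPM and 242.9 to 424.1 CPM in sciatic nerve, optic nerve and brain. Most of the sum came from Cd209a in sciatic nerve (mean 358.5 CPM) and from Fscn1 in optic nerve (mean 221.2 CPM) and brain (mean 296.6 CPM). Fscn1 was the marker called lower in sciatic nerve (mean 11.84 CPM), so these sums do not follow the other markers of the list. Cd209a, Ccr7 and Dpp4 were at 0 in brain. Of the 6 oligodendrocyte markers, 4 were tested, with 2 higher and 1 lower in sciatic nerve and 3 higher in optic nerve, and their sums were 53.0 to 78.2 CPM, 152.9 to 205.1 CPM and 50.6 to 60.4 CPM. The part of these cell types in the results was not tested. Plasmacytoid dendritic cells are a strong source of interferon, and their 8 markers summed to 144.6 to 179.3 CPM in sciatic nerve, 71.1 to 111.9 CPM in optic nerve and 189.1 to 287.8 CPM in brain. Tcf4 made up most of these sums (means of 164.3, 84.4 and 215.4 CPM), while Klk1 and Spib were at 0 in all libraries. Of the 4 tested, none was called higher and 2 were called lower in sciatic nerve and 1 in optic nerve than in brain. The 11 lymphoid markers summed to at most 5.32 CPM in any library.

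Transcripts of the interferons themselves were at or near 0, apart from Ifnb1. Of 21 ligand genes with a row in the table only Ifnb1, encoding interferon beta, passed the filter. It was at 4.71, 10.8, 4.82 and 8.46 CPM in sciatic nerve, 1.41, 13.7, 4.24 and 5.27 CPM in optic nerve and at 0 in all 5 brain libraries, which allows up to 0.0265 CPM (3 counts over the 5 libraries). Against that floor Ifnb1 was at least 271.4-fold higher in sciatic nerve and at least 232.2-fold higher in optic nerve (adjusted p = 1.53e-05 and 3.64e-05). Its levels overlapped between the nerves, with a log2 fold change of 0.22 (SE 0.67, adjusted p = 0.866). Ifng, the interferon gamma gene, was at 0 in all 13 libraries, and no other ligand exceeded 0.753 CPM in any library.

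The receptors did not follow the target genes. Ifnar1 was at 138.1, 128.5, 173.9 and 100.6 CPM in sciatic nerve, 94.1, 117.8, 120.7 and 111.7 CPM in optic nerve and 100.3, 88.6, 115.7, 106.2 and 98.6 CPM in brain. It rose by 0.41 in sciatic nerve (SE 0.16, adjusted p = 0.0455) with overlapping libraries and was not called in optic nerve (0.12, SE 0.16, adjusted p = 0.574), and Ifnar2 was called in neither (adjusted p = 0.142 and 0.765). Ifngr1, the ligand-binding chain of the interferon gamma receptor, fell in both nerves, by 1.86 (SE 0.18, adjusted p = 6.71e-07) and 1.82 (SE 0.18, adjusted p = 1.83e-06), from 1095 to 1870.0 CPM in brain to between 368 and 481.2 CPM in the nerves. Ifngr2 fell in sciatic nerve (-0.71, SE 0.13, adjusted p = 0.000494) and Il10rb in optic nerve (-0.71, SE 0.18, adjusted p = 0.00685). Among the kinases and transducers, Jak1 and Stat3 were higher in both nerves, and Jak2 and Tyk2 were not called. Stat3 rose by 1.79 (SE 0.23) and 1.92 (SE 0.23).

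Interferon regulatory factors outside the 49 changed in both directions. Irf1 rose to 570.1 to 807.4 CPM in sciatic nerve and 228.2 to 420.1 CPM in optic nerve from 42.7 to 104.0 CPM in brain, with log2 fold changes of 3.03 (SE 0.24, adjusted p = 8.96e-08) and 2.05 (SE 0.24, adjusted p = 9.86e-06). Irf8, a lineage factor of microglia, fell by 1.59 in sciatic nerve (SE 0.14, adjusted p = 1.99e-07) and was not called in optic nerve (0.18, SE 0.13, adjusted p = 0.293). Irf4 rose in sciatic nerve against both other tissues (2.66, SE 0.63, and 2.57, SE 0.68), and Irf5 and Irf2 fell there against brain. Of the 6 factors tested, 2 were higher and 3 lower in sciatic nerve (all genes, 24.1% and 24.3%). In optic nerve 1 was higher and 1 lower, near the 19.6% and 17.4% of all genes.

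Of 17 sensors and adaptors that lead to interferon production, 6 were higher and 5 lower in sciatic nerve (all genes, 24.1% and 24.3%), and 7 higher and 4 lower in optic nerve (all genes, 19.6% and 17.4%). Tmem173, which encodes the DNA-signalling adaptor STING, was at 128.8 to 210.0 CPM in sciatic nerve, 459.9 to 571.3 CPM in optic nerve and 719.5 to 1073 CPM in brain, and fell by 2.50 (SE 0.18, adjusted p = 3.04e-08) and 0.86 (SE 0.17, adjusted p = 0.00128). Its order was thus the reverse of that of Ifi203, Ifi207 and Ifi211. Tlr3, the endosomal sensor of double-stranded RNA, fell by 3.27 (SE 0.51) and 1.33 (SE 0.47), while Tlr8 was at 12.3 to 56.5 CPM in sciatic nerve, 0.108 to 3.08 CPM in optic nerve and 0 in all brain libraries. Myd88, the adaptor of most Toll-like receptors, rose by 1.95 (SE 0.19) and 2.35 (SE 0.19), and Trim25, a ligase that activates RIG-I, by 2.10 (SE 0.22) and 0.74 (SE 0.22).

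Of 11 inhibitors of the pathway tested, 4 were higher and 3 lower in each nerve than in brain, where all genes gave 24.1% and 24.3% in sciatic and 19.6% and 17.4% in optic nerve, so that the count was near the background. Socs3, an inhibitor of cytokine receptor kinases, rose to 851.4 to 1372 CPM in sciatic nerve and 844.4 to 1010 CPM in optic nerve from 15.6 to 35.8 CPM in brain (5.60, SE 0.26, and 5.36, SE 0.26). Socs1, its relative that acts on interferon receptors, rose by 2.06 (SE 0.32) and 1.98 (SE 0.32) at levels of at most 10.7 CPM. Samhd1, which depletes nucleotides and limits interferon induction, was higher in both nerves (2.64, SE 0.22, and 1.52, SE 0.21) and Irf2bp1 and Irf2bp2 were lower in both. The corepressor gene Irf2bp1 fell by 2.79 (SE 0.30) and 2.19 (SE 0.29).

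A wider list of 67 tested interferon-responsive genes outside the 49 moved less uniformly. In sciatic nerve 29 were higher and 6 lower than in brain, in optic nerve 28 higher and 6 lower, and between the nerves 9 higher and 8 lower. Of all genes, 24.1% and 24.3%, 19.6% and 17.4%, and 10.9% and 10.9% were called in these comparisons, so that the counts between the nerves were near the background. The medians were 0.70, 0.73 and 0.13 on the log2 scale, between those of the 49 and those of all genes. Ifitm6 was at 37.9 to 58.2 CPM in sciatic nerve, 1.398 to 2.11 CPM in optic nerve and 0 in brain, the same order as Ifitm2 and Ifitm3. The immunity-related GTPase gene Irgm2 fell in both nerves (-2.31, SE 0.36, adjusted p = 8.51e-05, and -1.34, SE 0.34, adjusted p = 0.00702), opposite to the guanylate-binding proteins. Cxcl11, a chemokine related to Cxcl10, was at 0.888 to 9.51 CPM in optic nerve, at most 1.18 CPM in sciatic nerve and 0 in brain.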

How the data were processed

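The authors deposited raw counts by gene symbol. Per the submitters' processing notes, the authors aligned reads to mm10 with STAR and counted them with featureCounts 1.5.1, and neither strandedness nor the handling of multiply matching reads is stated there. Of the per-sample columns, 0 were left unused. From the deposited counts, genes were filtered with filterByExpr and libraries scaled by TMM in edgeR 4.0.16 (R 4.3.3), and tissue was the only factor in a single quasi-likelihood fit over the 13 libraries. Adjusted p-values are Benjamini-Hochberg over the 13246 genes tested, with calls at an adjusted p under 0.05. Alternatives used limma 3.58.1 (voom) and DESeq2 1.42.0, and the test was checked on simulated counts. Depth was 10.9 to 23.5 M counts per library; floors (3 counts) cover counting error only. Gene positions and exon lengths came from GENCODE M21 (GRCm38), and shared stretches were 50 bases long.

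Named members were the most abundant of each role group and the 4 largest and 4 smallest called changes of each comparison; named pathway genes were all ligands and receptors and the 2 largest changes each way per list. The members and lists were chosen with earlier results of these data known, and Isg15, Irf7 and other members given beyond the rule were chosen after their values were seen. Within-tissue libraries differed by more than sampling noise. Results for 1 pathway gene are not reported here.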

Additional observations from a re-analysis of the deposited data

Results flagged for a closer look

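In 75 groups of libraries (24 named members and the mean over all 49, in 3 tissues) a library was marked where its gap to the nearest other was an unusually large part of the range. Chance marks about 1 in 20 such groups, and 12 were marked here. In brain replicate 1, Irf9 was low at 39.5 CPM and Ifitm2 high at 1.51 CPM. In brain replicate 5, Ifit3 was high at 14.5 CPM, Ifi203 at 0.7098 CPM and Oas3 at 0.292 CPM. In sciatic nerve replicate 3, Ifih1 was high at 51.1 CPM and Ddx58 at 41.6 CPM, and in sciatic nerve replicate 4 Slfn2 was high at 3015 CPM. In optic nerve replicate 1, Usp18 was high at 134.7 CPM and Herc6 at 42.3 CPM, in replicate 2 Ifi207 at 227.3 CPM, and in replicate 4 Ifi211 was low at 10.2 CPM.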

How the results depend on the processing

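The members called higher stayed within 1.5 times under every alternative: 37 to 42 of 49 in sciatic nerve against brain, 39 to 43 in optic nerve against brain and 10 to 19 between the nerves, with 38 to 41, 39 to 43 and 12 to 17 when each library was left out in turn. The members called lower, few to begin with, varied. In sciatic nerve against brain 1 (Ddx58) was called in place of 0 under upper-quartile scaling, limma-voom and without brain replicates 1 and 2, and 0 to 1 when each library was left out. In optic nerve against brain 2 were called in place of 1 with RLE size factors, upper-quartile scaling, DESeq2 or without brain replicates 1 and 2, 0 at 2-fold or more, and 1 to 2 when each library was left out. Between the nerves 1 was called in place of 2 at 2-fold or more, and 0 to 2 when each library was left out. Of the 112 pathway genes tested, those called lower numbered 11, 10 and 9 at 2-fold or more in the 3 comparisons (19, 16 and 17 without that limit) and 26 between the nerves without brain replicates 1 and 2; those higher between the nerves were 11 to 20 when each library was left out. Of all genes, 1675 were higher in optic nerve than in brain at 2-fold or more, in place of 2590.

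With the replicate number as a block, pathway genes called lower fell to 12 in sciatic and 10 in optic nerve against brain; members called higher were 40, 41 and 18. The block uses replicates 1 to 4, and the same libraries without it, an alternative chosen after seeing the data, gave 40, 42 and 19. Same-numbered libraries deviated together no more than others (correlations of -0.0776 to 0.0773, against -0.0982 to 0.0982). This check cannot tell whether equal numbers came from the same mice, and the brain numbers are those of the columns only.

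Only the 24 named members were followed singly through the alternatives. Among them, signs changed in 6 with no call in that comparison. Irf9 in sciatic nerve against brain was -0.12 without brain replicates 1 and 2 and -0.0602 to 0.20 when each library was left out. Between the nerves Gbp7 was 0.0237 and Cxcl10 0.0146 with RLE size factors and with DESeq2, and leaving out each library gave -0.20 to 0.19 for Gbp7, -0.21 to 0.0771 for Cxcl10, -0.43 to 0.16 for Ifit3, -0.40 to 0.29 for Usp18 and -0.0059 to 0.43 for Ddx58. The cause was not tested. The mean level over the members kept within 1 SD with other prior counts. In the 250 bases before the start alone, 53.8% of members held the ISRE core, 35.9% the longer form and 12.8% the GAS.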
